A study of Homo sapiens with 6 samples.

Results

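Of the 40488 genes in the deposited table, 44 are described here: the genes that load, fire and copy replication origins, those that supply deoxynucleotides, the E2F factors and a few genes that act at the step from G1 into S phase. They were taken by symbol from a list that was chosen with earlier results of these data known. All 44 were found under 1 Ensembl gene ID each, and all 44 passed the filter on low counts. The RNA came from SCC90, an established line of HPV16-positive oropharyngeal squamous carcinoma (base of tongue). Both groups received a transfected siRNA and were harvested 72 h later. The siCTRL group (3 libraries) received a scrambled siRNA and the siDNp63 group (3 libraries) an siRNA against ΔNp63, the isoform of p63 that lacks the N-terminal transactivation domain. The labels give 10 nM of siRNA and the study's methods another concentration. All values come from 1 cell line and 1 siRNA against ΔNp63, and the labels do not say that the replicates were separate cultures, so the spread behind each p-value is that of these libraries and may be of technical origin.

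Before S phase, the origin recognition complex, CDC6 and CDT1 load the ring of MCM2 to MCM7 onto DNA, and CDC45 with the GINS complex later turns that ring into the working helicase. Most of these genes are transcribed at the step from G1 to S under E2F factors, which the RB family holds back until cyclin-dependent kinases release them. In HPV16-positive cells the viral E7 protein binds RB, so that E2F target genes are transcribed without the usual restraint. In squamous epithelium ΔNp63 marks the basal, dividing layer, which is where such genes are normally expressed.

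The E2F binding element is visible in the promoters of many of these genes, and 7 promoters are shown as examples. The sequences are those of RefSeq on GRCh38.p14, 170 bases ending just before the annotated start, written 5′ to 3′ on the strand of the gene. Capitals mark the words TTTCCCGC, TTTGGCGC, TTTCGCGC and TTTGCCGC on either strand, and where capitals run past 8 letters 2 words on opposite strands overlap. E2F1 (chr20:33686386-33686555, minus strand) carried 2 words next to its start, and its mRNA rose after ΔNp63 silencing. MCM6 (chr2:135876444-135876613, minus strand) carried 4 and its mRNA did not pass the test. RFC3 (chr13:33817979-33818148, plus strand) and TYMS (chr18:657483-657652, plus strand) carried 1 each and rose. CCNE1 (chr19:29811821-29811990, plus strand), RRM1 (chr11:4094515-4094684, plus strand) and RFC5 (chr12:118016533-118016702, plus strand) are the 3 genes that fell, and none of these words lies in their windows. Only these exact words were searched, so a window without them may still hold another E2F site. These examples do not represent the genes by direction of change. Each example that rose carries a word, but only 5 of the 12 genes that rose and had a matched promoter did. A word was also found for 12 of the 23 matched genes that did not pass the test.
E2F1: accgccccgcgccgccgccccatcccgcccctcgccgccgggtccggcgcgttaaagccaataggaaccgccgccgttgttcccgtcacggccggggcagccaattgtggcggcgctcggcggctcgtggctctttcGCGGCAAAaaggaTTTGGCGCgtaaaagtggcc
MCM6: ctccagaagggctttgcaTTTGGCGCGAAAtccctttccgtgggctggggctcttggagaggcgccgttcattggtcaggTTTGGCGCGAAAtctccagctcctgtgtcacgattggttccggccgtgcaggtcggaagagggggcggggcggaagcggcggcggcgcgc
RFC3: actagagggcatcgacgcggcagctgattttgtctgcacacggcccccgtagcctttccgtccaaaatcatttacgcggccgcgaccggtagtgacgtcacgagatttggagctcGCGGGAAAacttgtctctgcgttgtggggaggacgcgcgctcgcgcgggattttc
TYMS: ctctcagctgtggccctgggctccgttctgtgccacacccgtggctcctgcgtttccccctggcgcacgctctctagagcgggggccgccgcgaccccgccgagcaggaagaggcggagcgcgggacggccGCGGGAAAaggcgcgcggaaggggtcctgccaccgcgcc
CCNE1: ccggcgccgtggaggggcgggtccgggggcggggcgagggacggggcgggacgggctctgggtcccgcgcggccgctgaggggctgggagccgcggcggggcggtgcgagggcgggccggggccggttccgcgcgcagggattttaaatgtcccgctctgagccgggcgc
RRM1: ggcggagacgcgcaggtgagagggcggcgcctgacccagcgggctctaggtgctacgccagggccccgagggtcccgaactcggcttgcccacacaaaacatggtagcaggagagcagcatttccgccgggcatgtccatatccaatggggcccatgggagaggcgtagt
RFC5: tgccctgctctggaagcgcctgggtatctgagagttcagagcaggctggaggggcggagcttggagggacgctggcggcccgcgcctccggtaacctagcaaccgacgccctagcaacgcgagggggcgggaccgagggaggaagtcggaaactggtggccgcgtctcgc

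A RefSeq promoter was matched for 38 of the 44 genes (none for MCM4, MCM5, GINS4, POLD3, E2F8 and CCNE2). Within the 250 bases before the start, 17 of the 38 (44.7%) held at least 1 of the 4 E2F words, against 928 of 27305 gene symbols with a promoter in the same table (3.40%). The 44 genes were listed as replication and E2F target genes, so a high share was built into the choice. The background symbols were not matched for expression or GC content. The CCAAT box (CCAAT, both strands) was found in 24 of 38 (63.2%) against 37.0% of all symbols. The letters TTTGAA, the core of the cell cycle homology region of genes expressed in G2 and mitosis, were found in 2 of 38 (5.26%) against 16.1%. An E2F word was present in 5 of the 12 matched genes that rose (MCM3, RFC3, TYMS, E2F1 and E2F3), in 0 of the 3 that fell and in 12 of the 23 that did not pass the test, among them PCNA, POLA1, CDT1, MCM7 and E2F2. Whether its frequency differed between these classes was not tested. These are matches of letters, so a missing word does not show that a site is absent, and no binding was measured.

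TP63 was lower in every siDNp63 library, with normalized counts of 42319, 44204 and 43700 in siCTRL and 15520, 14474 and 15414 in siDNp63 (log2 fold change −1.52 ± 0.04 SE, adjusted p = 7.59e-07). The deposited count sums the ΔN and TA transcripts. Library totals lay between 35716277 and 52598831 expected counts. The siDNp63 replicate 1 library stood apart from the other two of its group on the second principal component over all genes (−39.1 against 25.6 and 24.8). Of the squamous markers, all 7 were detected above 1 TPM (transcript abundance per length, scaled to the same sum in each library) in at least 1 library, summing to 1870 to 1876 TPM in siCTRL and 2266 to 2402 in siDNp63. Marker sums were 5.99 to 7.14 against 3.56 to 4.29 TPM for 5 leukocyte genes, 7.47 to 9.54 against 4.62 to 8.11 for 5 fibroblast genes (PDGFRB at 0) and 2.56 to 3.06 against 11.2 to 13.7 for 5 endothelial genes. The part of these markers in the results was not tested. In bulk RNA, a change in the share of cells in a phase and a change of RNA per cell cannot be told apart.

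ΔNp63 silencing was followed by small changes in these genes, mostly upward, though the number of rises depended on the measure and scaling. With edgeR's quasi-likelihood test on expected counts, adjusted over all 17257 genes tested, 15 of the 44 genes rose (34.1%, where 18.4% of all genes tested were called higher) and 3 fell (6.82%, against 15.2% of all genes called lower). The genes that rose did so by 0.12 to 0.45 on the log2 scale, that is by 1.08 to 1.37 times, and the largest change in either direction was the fall of CCNE1, by 0.87. None of the 44 passed both an adjusted p under 0.05 and an absolute log2 fold change over 1 with edgeR, where 4.06% of all genes did, nor with an unadjusted p under 0.05 or with DESeq2. The median log2 fold change of the 44 genes was 0.11 against −0.02 for all genes tested, and 37 of the 44 values lay above 0. For 30 of the 44 genes the groups did not overlap (26 with siDNp63 above, 4 below), where 49.4% of all genes tested showed such a separation. The median of the 44 genes relative to the siCTRL mean was 0.01, −0.01 and −0.01 on the log2 scale in siCTRL and 0.10, 0.14 and 0.11 in siDNp63 replicates 1, 2 and 3, so the upward shift was present in each siDNp63 library. Scaled by library totals instead of the trimmed mean of M values (TMM), 9 rose and 4 fell (background 13.5% and 23.9%), with a median of 0.028 against −0.11 for all genes. With limma on log2(TPM + 1), 3 rose and 3 fell (6.82% each, against a background of 9.67% and 13.6%). On that scale the share of rises was below that of all genes, with a median of 0.044 against −0.059.

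**Figure D1:**
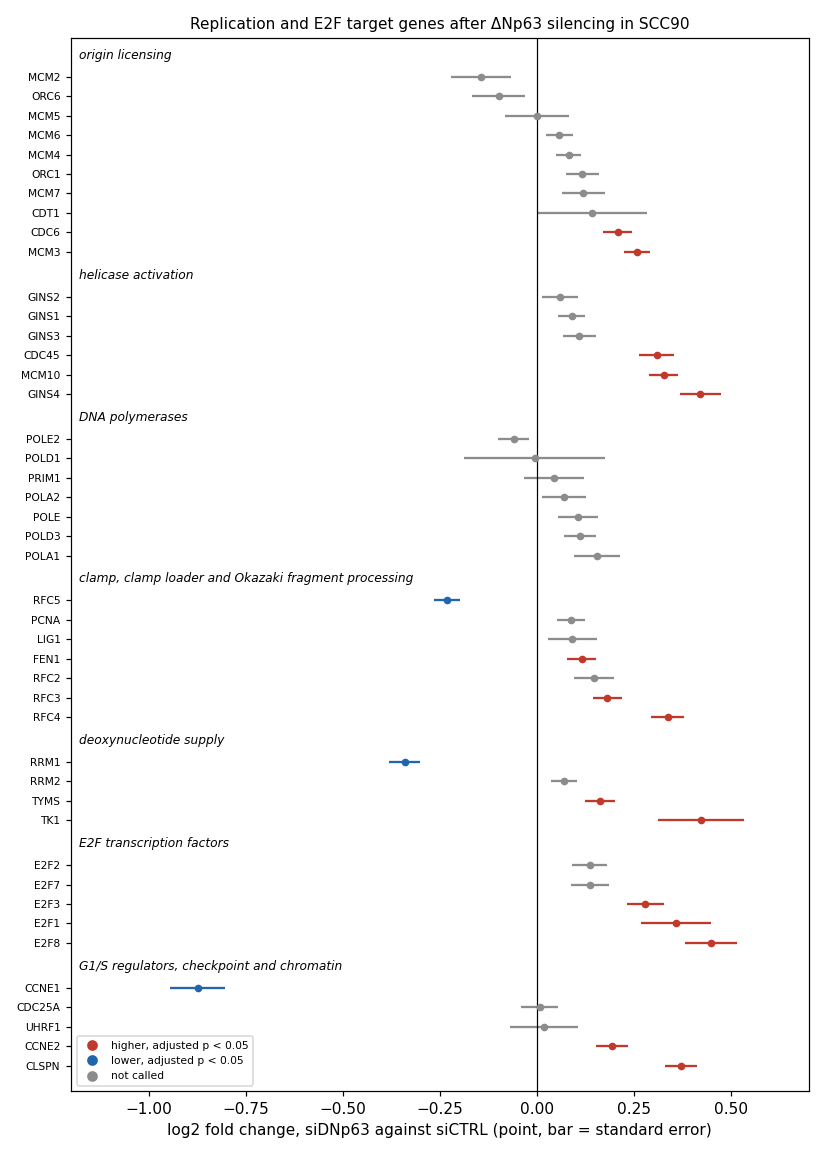
Log2 fold change of each of the 44 genes, siDNp63 against siCTRL (horizontal axis; point with SE, 3 libraries per group), arranged by role. Of the 44 points 37 lie to the right of 0, 15 of them red (called higher), and CCNE1 at −0.87 lies farthest from 0.

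Of the 10 genes of origin licensing, CDC6 and MCM3 rose and none fell (median log2 fold change 0.10). The 20% called higher was close to the 18.4% of all genes tested. MCM3 (ENSG00000112118; chromosome 6, 52264014 to 52284881 of GRCh38), a subunit of the helicase ring, had normalized counts of 13207, 13580 and 13498 in siCTRL and 15889, 16308 and 15943 in siDNp63. All 3 siDNp63 libraries lay above all siCTRL libraries (log2 fold change 0.26 ± 0.03 SE, adjusted p = 0.000775). CDC6, the ATPase that recruits the ring to the origin, rose by 0.21 ± 0.04 (adjusted p = 0.00407), with 4777 to 5020 normalized counts in siCTRL and 5519 to 5740 in siDNp63. The CDC6 call was lost with transcript length offsets and with both limma fits of TPM, where its log2 fold change was 0.12. The other ring subunits did not pass the test. Their log2 fold changes were −0.15 for MCM2, 0.08 for MCM4, 0.00 for MCM5, 0.06 for MCM6 and 0.12 for MCM7. MCM2 was the only uncalled gene of the 44 whose siDNp63 libraries all lay below siCTRL (11930, 14819 and 14357 against 15563, 14925 and 14979). Its position rested largely on replicate 1, since replicates 2 and 3 came close to the control values. The origin recognition subunits ORC1 (0.12) and ORC6 (−0.10) and the loading factor CDT1 (0.14) did not pass the test either.

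Because the ring holds its 6 subunits in equal number, their levels were also compared as shares of the summed TPM of MCM2 to MCM7 within each library, which needs no scaling between libraries. MCM3 made up 11.3%, 11.7% and 12.0% of the sum in siCTRL and 14.0%, 13.2% and 13.2% in siDNp63. The MCM2 share was 14.8%, 12.8% and 13.6% in siCTRL and 9.97%, 12.4% and 12.3% in siDNp63. MCM3 thus held a larger share in every siDNp63 library and MCM2 a smaller one. MCM4 held the largest share in both groups (30.0% ± 0.600 and 30.1% ± 2.18, SD, n = 3). MCM6 remained at 14.5% in both group means, MCM7 went from 19.8% to 20.6% and MCM5 from 10.3% to 9.67%. Of the 31-base words of the MCM2 transcript 30.2% occur in another gene, so its level is less certain. These shares were looked at after the values were known and carry no test.

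Among the 6 genes that turn the loaded ring into a helicase, MCM10, GINS4 and CDC45 rose, none fell, and the median log2 fold change was 0.21. In this small group 50% were called higher, against 18.4% of all genes tested. MCM10 (ENSG00000065328; chromosome 10, 13161558 to 13211110), which is needed for the activated helicase to leave the origin, had normalized counts of 2512, 2518 and 2422 in siCTRL and 3159, 3138 and 3050 in siDNp63. The groups did not overlap (log2 fold change 0.33 ± 0.04 SE, adjusted p = 0.000442). On the TPM scale the MCM10 difference was smaller (a ratio of 1.08 between group means), and with limma on log2(TPM + 1) its log2 fold change was 0.10 and not called. GINS4, a subunit of the GINS complex, had 1634, 1466 and 1517 in siCTRL and 2127, 2014 and 2049 in siDNp63 (0.42 ± 0.05, adjusted p = 0.000678). Of its canonical transcript, 38.7% of 31-base words also occur in transcripts of other genes, so its estimated counts are less certain. With limma on log2(TPM + 1) the log2 fold change of GINS4 was 0.20 and not called. CDC45, which joins GINS in the working helicase, had 1235, 1279 and 1258 in siCTRL and 1531, 1607 and 1533 in siDNp63 (0.31 ± 0.05, adjusted p = 0.00159), but on log2(TPM + 1) CDC45 gave 0.19 and was not called. The other GINS subunits gave log2 fold changes of 0.09 (GINS1), 0.06 (GINS2) and 0.11 (GINS3) and did not pass the test. Within a library, the TPM of GINS4 was 0.448, 0.406 and 0.465 times that of GINS1 in siCTRL and 0.517, 0.523 and 0.520 times in siDNp63. These ratios did not overlap, but the pair was chosen after the values were seen.

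None of the 7 DNA polymerase genes passed the edgeR test, nor did any with DESeq2 or limma-voom, and 2 were higher at an unadjusted p under 0.05, where 22.7% of all genes tested were (median log2 fold change 0.07). The smallest adjusted p was that of POLD3, an accessory subunit of polymerase δ, with 2217, 2226 and 2215 normalized counts in siCTRL and 2387, 2317 and 2484 in siDNp63 (0.11 ± 0.04 SE, adjusted p = 0.0753). Its groups did not overlap, but the difference did not pass the threshold. The catalytic subunit of polymerase α, POLA1, gave 0.15 (adjusted p = 0.0768), its partner POLA2 0.07 and the small primase subunit PRIM1 0.04. The leading-strand polymerase ε gave 0.10 for POLE and −0.06 for POLE2. POLD1, the catalytic subunit of polymerase δ, was the least well measured of the 44 genes, with a log2 fold change of −0.01 and an SE of 0.18. Its counts were 927, 811 and 775 in siCTRL and 581, 950 and 964 in siDNp63, so that replicate 1 lay below and the other siDNp63 libraries above the controls.

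Of the 7 genes of the sliding clamp, its loader and Okazaki fragment processing, RFC4, RFC3 and FEN1 rose and RFC5 fell (median 0.12). These are 42.9% higher and 14.3% lower, against 18.4% and 15.2% of all genes tested. The loader of the PCNA clamp is built from the large subunit RFC1 and the small subunits RFC2 to RFC5, so 3 calls fell within a single complex. RFC4 had normalized counts of 6636, 6928 and 6600 in siCTRL and 8823, 8480 and 8177 in siDNp63 (0.34 ± 0.04 SE, adjusted p = 0.000683). RFC5 (ENSG00000111445; chromosome 12, 118013588 to 118033130) had 5127, 5093 and 5181 in siCTRL and 4399, 4400 and 4322 in siDNp63 (−0.23 ± 0.03, adjusted p = 0.0013). Neither gene overlapped between groups, and the direction was opposite. RFC3 rose by 0.18 ± 0.04 (adjusted p = 0.00769), a call lost under 4 of 17 alternatives, where its log2 fold change fell to as little as 0.096. RFC2 gave 0.15 (adjusted p = 0.0629). The flap nuclease FEN1 rose by 0.12 (adjusted p = 0.0451), a call that was lost under 13 of 17 alternative settings. PCNA itself (0.09) and the ligase LIG1 (0.09) did not pass the test.

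Of the 4 genes of deoxynucleotide supply, TYMS and TK1 rose and RRM1 fell (50% and 25%, against 18.4% and 15.2% of all genes tested). RRM1 (ENSG00000167325; chromosome 11, 4094707 to 4138932), the large subunit of ribonucleotide reductase, had normalized counts of 16530, 16870 and 17364 in siCTRL and 13861, 13095 and 13140 in siDNp63. Every siDNp63 library lay below every siCTRL library (−0.34 ± 0.04 SE, adjusted p = 0.000441). The small subunit RRM2, which the enzyme also requires, gave 0.07 (adjusted p = 0.156), with 14370 to 14877 normalized counts in siCTRL and 15117 to 15548 in siDNp63. Thymidylate synthase, TYMS, rose by 0.16 ± 0.04 (adjusted p = 0.0139), but 62.2% of its 31-base words occur in transcripts of other genes, mostly of ENOSF1, with which it shares 55.9%. The TYMS call was lost under 4 of 17 alternatives, with a log2 fold change of 0.077 under library totals. Thymidine kinase 1, TK1, had 4020, 3709 and 3606 in siCTRL and 4127, 5661 and 5384 in siDNp63 (0.42 ± 0.11, adjusted p = 0.0206). Its replicate 1 in siDNp63 lay just above the highest control, far below the other siDNp63 libraries, and the TK1 call was lost under 9 of 17 alternatives.

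The E2F family gave the highest median of the 7 role groups, 0.28. E2F1, E2F3 and E2F8 were called higher out of 5 (60%, against 18.4% of all genes tested). E2F8 (ENSG00000129173; chromosome 11, 19224063 to 19241620), an atypical family member that represses E2F targets late in S phase, had normalized counts of 1130, 1102 and 1145 in siCTRL and 1680, 1436 and 1499 in siDNp63 (0.45 ± 0.07 SE, adjusted p = 0.00145). It was the largest rise among the 44 genes with edgeR, but with limma on log2(TPM + 1) E2F8 gave 0.31 and was not called. The activator E2F3 rose by 0.28 ± 0.05 (adjusted p = 0.00275), with 3234 to 3417 counts in siCTRL and 3885 to 4254 in siDNp63, and was not called with either limma fit of TPM. The activator E2F1 (ENSG00000101412; chromosome 20, 33675477 to 33686385) had 1844, 1738 and 1748 in siCTRL and 1935, 2426 and 2462 in siDNp63 (0.36 ± 0.09, adjusted p = 0.0172). As for TK1, siDNp63 replicate 1 lay much nearer to the controls than replicates 2 and 3 did, and the call was lost under 9 of 17 alternatives. The activator E2F2 (0.14, adjusted p = 0.0531) and the repressor E2F7 (0.14, adjusted p = 0.0651) had no overlap between groups but did not pass the test. Identical values for E2F2 are listed under a second gene ID in all 6 libraries.

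Among the remaining 5 genes, CLSPN and CCNE2 rose and CCNE1 fell (40% and 20%, against 18.4% and 15.2% of all genes tested). CCNE1 (ENSG00000105173; chromosome 19, 29811991 to 29824312) encodes cyclin E1, which activates CDK2 at the entry into S phase. Its normalized counts were 892, 842 and 819 in siCTRL and 486, 444 and 464 in siDNp63, a ratio of 0.546. This was the smallest adjusted p and the largest change of the 44 genes (log2 fold change −0.87 ± 0.07 SE, adjusted p = 6.87e-05). CCNE2, which encodes the second E-type cyclin, moved the other way, from 6806 to 7073 counts in siCTRL to 7661 to 8169 in siDNp63 (0.19 ± 0.04, adjusted p = 0.00805). The CCNE2 call was lost with library totals (log2 fold change 0.11), with both limma fits of TPM and with an adjusted p under 0.005. For CCNE2, 56.5% of 31-base words are shared with other genes, mostly the overlapping INTS8, whereas CCNE1 shares none. CLSPN (ENSG00000092853; chromosome 1, 35720218 to 35769978), whose product claspin carries the replication checkpoint signal from ATR to CHK1, had 8414, 8113 and 8014 in siCTRL and 10904, 10165 and 10700 in siDNp63 (0.37 ± 0.04, adjusted p = 0.000373). The phosphatase CDC25A (0.01) and UHRF1 (0.02), which reads hemimethylated DNA behind the fork, did not pass the test.

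**Figure D2:**
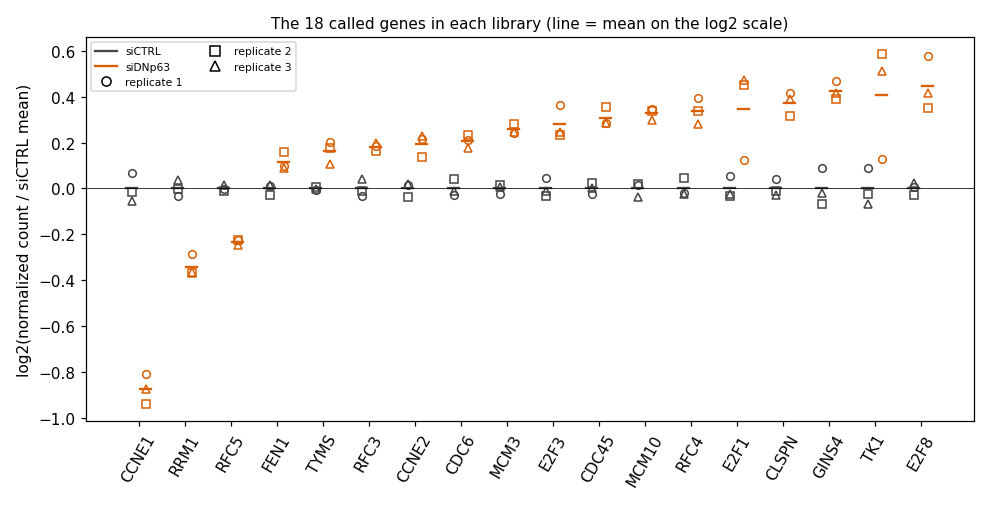
The 18 called genes in each library, as log2 of the normalized count relative to the siCTRL mean (vertical axis), with lines at group means on the log2 scale and symbols for replicates 1 to 3. The siCTRL points (grey) lie near 0, the siDNp63 points (orange) lie below them for CCNE1, RRM1 and RFC5, and siDNp63 replicate 1 lies nearest to the controls for E2F1 and TK1.

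The genes that fell each have a partner that works in the same complex or step and did not fall, so the partners were compared as TPM ratios within each library, a measure that does not depend on the scaling between libraries. These pairs were chosen after the values were seen, and the ratios are descriptions with no test. Cyclin E1 mRNA stood at 0.224, 0.188 and 0.188 times cyclin E2 mRNA in siCTRL and at 0.0978, 0.0964 and 0.0912 times in siDNp63 (0.200 ± 0.0206 against 0.0951 ± 0.00348, SD, n = 3). The RRM1 to RRM2 ratio was 1.06, 1.24 and 1.30 in siCTRL and 0.874, 0.867 and 0.987 in siDNp63. RRM1 was thus the more abundant subunit mRNA in every siCTRL library and the less abundant in every siDNp63 library. The RFC5 to RFC4 ratio was 0.396, 0.395 and 0.416 in siCTRL and 0.273, 0.263 and 0.284 in siDNp63, and that of RFC5 to RFC3 went from 2.14 ± 0.0419 to 1.60 ± 0.0219. The ratio of E2F8 to E2F7 went from 0.413 ± 0.0158 to 0.516 ± 0.0294, and that of MCM2 to MCM3 from 1.18 ± 0.119 to 0.863 ± 0.130. In each of these pairs the 3 siDNp63 ratios lay wholly on one side of the 3 siCTRL ratios. The choice of pairs by their values made that separation likely, so it adds no support to the single-gene calls.

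**Figure D3:**
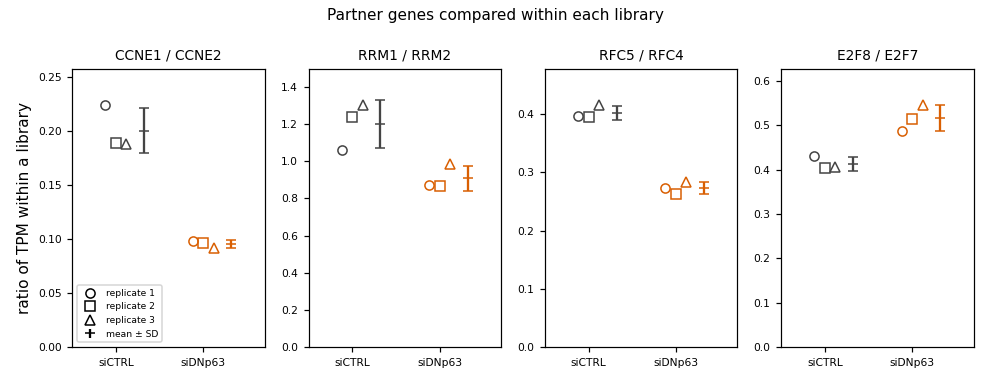
TPM ratios of CCNE1 to CCNE2, RRM1 to RRM2, RFC5 to RFC4 and E2F8 to E2F7 within each library (symbols for replicates, bars for mean ± SD, n = 3 per group, axes from 0). The siDNp63 ratios lie below the siCTRL ratios in the first 3 panels and above them in the last.

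On the TPM scale, which allows levels to be compared between genes, the 44 genes ranged in siCTRL from 477 ± 8.38 (PCNA) to 11.0 ± 1.38 (CDT1). PCNA, the clamp, and MCM4 (436 ± 14.7) held ranks 1 and 2 in both groups. RRM1 held rank 3 in siCTRL (317 ± 26.2) and rank 8 in siDNp63 (248 ± 12.7), while RFC4 went from rank 7 (258 ± 7.81) to rank 3 (308 ± 6.63). At the lower end, CCNE1 fell from rank 38 (21.6 ± 1.77 TPM) to the lowest rank, 44 (11.4 ± 0.498), close to CDT1 at 11.5 ± 2.04. E2F8 (12.2 ± 0.579 and 15.4 ± 1.40) and E2F2 (12.8 ± 0.412 and 13.2 ± 0.477) were also among the lowest. All 5 E2F genes ranked 34 or lower of the 44 in both groups. None of the 44 genes lay near the floor, since the lowest normalized count of any of them in any library was 444 and the highest 20983.

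**Figure D4:**
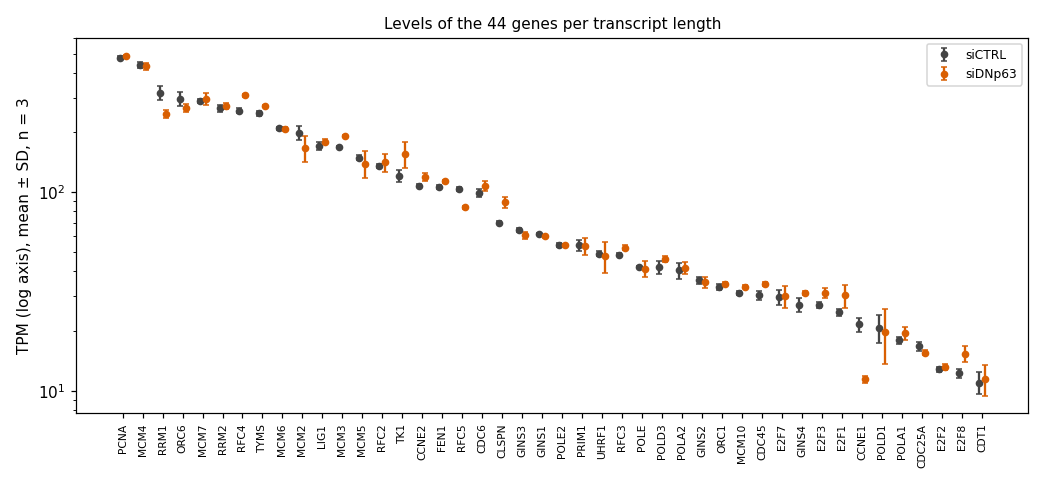
TPM of the 44 genes in siCTRL (grey) and siDNp63 (orange), mean ± SD of 3 libraries on a log axis, ordered by the siCTRL mean. PCNA at 477 TPM is highest and CDT1 at 11.0 lowest in siCTRL, and CCNE1 shows the widest gap between the groups.

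The siDNp63 replicate 1 library differed from replicates 2 and 3 in a way that followed the GC content of the transcripts. Over the 44 genes the difference of replicate 1 from the mean of replicates 2 and 3 (log2 of normalized counts) had a correlation with transcript GC content of r = −0.78 (rho = −0.62), a description over genes that share these libraries. For the 11 genes over 55% GC the median difference was −0.32 and 10 of 11 lay below 0, whereas for the other 33 it was 0.05 and 7 lay below 0. The largest differences were −0.72 for POLD1, −0.47 for CDT1, −0.42 for TK1, −0.34 for both UHRF1 and E2F1, −0.32 for MCM5 and −0.29 for MCM2. Of the 11 genes over 55% GC only TK1 and E2F1 were called, against 16 of the other 33. Of all genes tested 18.4% were called higher and 15.2% lower, and their shares by GC content were not computed. The log2 fold change itself had no such relation to GC content (r = −0.01). Without siDNp63 replicate 1, 23 of the 44 genes rose and 3 fell (background 20.5% and 17.9%). All 18 calls were kept, and ORC1, MCM5, MCM7, POLE, POLD3, PCNA, LIG1 and UHRF1 were added. Among these, ORC1, POLD3 and PCNA had 50.7%, 42.6% and 43.5% GC and replicate 1 differences of only −0.05, −0.01 and −0.04. The counts for licensing, polymerase and ligase genes thus rested in part on this library.

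**Figure D5:**
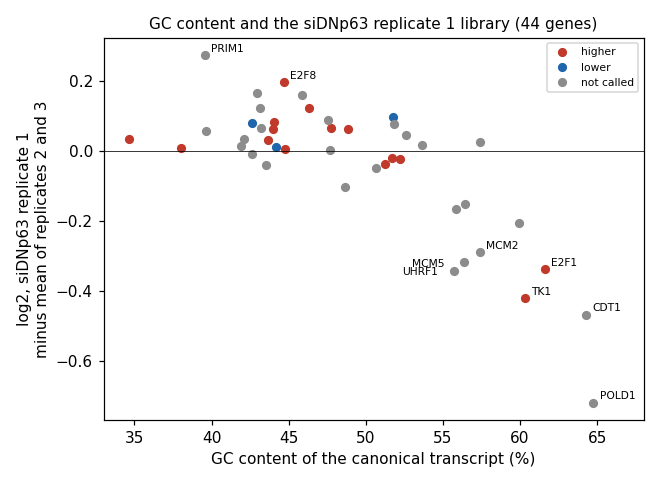
Difference of siDNp63 replicate 1 from the mean of replicates 2 and 3 (vertical axis, log2) against GC content of the canonical transcript (horizontal axis, percent) for the 44 genes, colored by call. Genes over 55% GC lie mostly below 0, down to −0.72 for POLD1.

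Other genes of the same pathways were taken from 4 lists with 83 genes in all. Of these, 28 were higher (33.7%, against 18.4% of all genes tested) and 10 lower (12.0%, against 15.2%), with a median of 0.08. Among 37 other origin and fork genes 9 rose and 5 fell (24.3% and 13.5%), near the shares of all genes tested. PRIM2, the large primase subunit, had 3259, 3365 and 3327 normalized counts in siCTRL and 5516, 5176 and 5341 in siDNp63 (0.69 ± 0.04 SE, adjusted p = 1.16e-05), a larger rise than that of any of the 44 genes. Its partner PRIM1 gave 0.04, and the PRIM2 to PRIM1 ratio of TPM went from 1.38 ± 0.115 to 2.11 ± 0.132, with 36.9% of the 31-base words of PRIM1 shared with other genes. Shared words were not computed for PRIM2 or the other genes of these lists. The replication protein DONSON (0.60, adjusted p = 0.000184) and MCM8 (0.51, adjusted p = 0.000587), a helicase of recombination, rose as well. The genes that fell were POLE3 (−0.44, adjusted p = 6.36e-05), a histone-fold subunit of polymerase ε, POLD2 (−0.38, 0.0186), TIPIN (−0.24, 0.0245), RPA2 (−0.21, 0.00989) and CDC7 (−0.19, 0.0364), the kinase that fires origins. POLD2 had 1653, 2182 and 2127 normalized counts in siDNp63 against 2561 to 2599 in siCTRL, with siDNp63 replicate 1 well below the other libraries. The partners of POLE3 and POLD2 among the 44 genes (POLE, POLE2, POLD1 and POLD3) did not pass the test.

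Of 10 other deoxynucleotide genes 3 rose and 1 fell (30% and 10%, against 18.4% and 15.2% of all genes tested). DUT (0.32, adjusted p = 0.00198) and DCK (0.23, adjusted p = 0.0136) were among those that rose, and SAMHD1, which degrades deoxynucleotides, fell by 0.12 (adjusted p = 0.0352). On the TPM scale the groups overlapped for SAMHD1 (30.1 to 33.1 in siCTRL, 25.3 to 31.1 in siDNp63). DUT makes the substrate of TYMS in the thymidylate pathway. Of 14 genes of the RB family, other E2F factors and the DREAM complex, 4 rose and 1 fell (28.6% and 7.14%). E2F5, a repressor E2F, had 650, 711 and 643 normalized counts in siCTRL and 1366, 1143 and 1067 in siDNp63 (0.83 ± 0.10 SE, adjusted p = 0.000494). The DREAM and MuvB subunits LIN9 (0.35, adjusted p = 0.000662) and LIN54 (0.26, adjusted p = 0.00427) and the transcription factor MYBL2 (0.50, adjusted p = 0.00699) rose. MYBL2 had 6044, 8128 and 7752 normalized counts in siDNp63, replicate 1 lying nearest to the 4992 to 5312 of siCTRL. The dimerization partner TFDP2 fell by counts (−0.26, adjusted p = 0.00365). On the TPM scale TFDP2 did not fall, with means of 79.0 in siCTRL and 79.4 in siDNp63. Of 22 other S-phase E2F targets 12 rose and 3 fell (54.5% and 13.6%). The PCNA-associated factor PCLAF (0.56, adjusted p = 8.21e-05) rose. CDCA7 (−0.50, adjusted p = 0.000105) and HELLS (−0.18, adjusted p = 0.0111), which form a chromatin remodeler together, and SKP2 (−0.42, adjusted p = 0.000248), the F-box protein that targets p27, fell. The TPM groups of HELLS overlapped, at 59.3 to 61.8 in siCTRL and 46.5 to 60.4 in siDNp63.

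A list of 32 genes of G2 and mitosis was set beside the replication genes, since both are expressed in cycling cells. Of these 23 rose and none fell with edgeR (71.9% higher, where 18.4% of all genes tested were). With DESeq2 and limma-voom 26 and 23 rose, and none was lower with either tool or at an unadjusted p under 0.05. The median was 0.26, against 0.11 for the 44 genes. The medians by library were 0.31, 0.26 and 0.22 in siDNp63 replicates 1, 2 and 3. The smallest p-values were those of FOXM1 (0.50, adjusted p = 0.000103), CDC20 (0.53, adjusted p = 0.000105), TOP2A (0.62, adjusted p = 0.000141) and ECT2 (0.61, adjusted p = 0.000149). The difference between the lists was not tested. Library order differed between them, as the median of the 44 genes was lowest in siDNp63 replicate 1, where that of the G2 and mitosis genes was highest.

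Of the 18 calls, 6 held under all 17 alternative settings, those of MCM3, RFC4 and CLSPN (higher) and CCNE1, RRM1 and RFC5 (lower). No log2 fold change of a called gene changed sign under any of them. The 3 falls were called under each alternative, whereas the number of rises lay between 3 and 23.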

How the data were processed

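RNA from SCC90 cells was sequenced as stranded, poly(A)-selected libraries read from a single end, 3 per group, with groups and replicate numbers taken from the sample titles. Per the submitters' processing notes the authors used bcl2fastq 2.17.1.14, kallisto 0.46.2 and the build hg38. The release of the annotation was not given in the sources used here. Per the methods kallisto was run with default options, so strand was not used. The deposited expected counts are the authors' kallisto estimates, added up over the transcripts of a gene and not scaled. The TPM values deposited beside them are abundances per length. All 12 value columns were used. Gene names were matched for 35538 of 40488 IDs.

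Expected counts were rounded, filtered (edgeR 4.0.16, filterByExpr, minimum count 10; 17257 genes), scaled by TMM and tested with edgeR's quasi-likelihood test with the group as the only term, under R 4.3.3. The Benjamini-Hochberg adjustment ran over all 17257 genes, and genes were called at an adjusted p under 0.05. The alternatives were DESeq2 1.42.0, its size factors in edgeR, limma-voom and limma on log2(TPM + 1) or log2(TPM + 0.1) (limma 3.58.1), library totals, other filters, transcript length offsets, a replicate block, each library left out and an adjusted p under 0.005.

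The 44 genes and the other lists were chosen with earlier results of these data known. All 44 genes are named. Values in every library are given for the 10 with the smallest adjusted p, the smallest of each role group and each gene called lower. They are also given for MCM2, POLD1, TK1 and E2F1, chosen after their values were seen. From the other lists up to 4 genes with the smallest p and up to 4 genes called in the less frequent direction are named, with CDC7, which has the largest p of the 5 falls among the other origin and fork genes, added to complete them. Some genes that this rule names are not reported here. GC content and shared 31-base words were computed for the 44 genes only, from the canonical transcripts of GENCODE on GRCh38, and coordinates are from that annotation. Motifs were counted on both strands of the RefSeq promoters of GRCh38.p14, with overlapping matches counted separately. Depth was 35716277 to 52598831 counts per library. Whether the spread between libraries or counting error limits precision was not compared for each gene. For CCNE1 in siDNp63 the SD was 21.0 at a mean of 465 normalized counts, a spread about that of counting error.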

Additional observations from a re-analysis of the deposited data

How the results depend on the processing

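The direction of each called gene among the 44 held under all 17 alternatives. The 15 rises became 9 with library totals or with an adjusted p under 0.005, 4 with limma on log2(TPM + 0.1) and 3 on log2(TPM + 1), and ranged from 12 to 23 with 1 library left out, the 23 without siDNp63 replicate 1. FEN1, TK1 and E2F1 were lost without any 1 siCTRL library and without siDNp63 replicate 2 or 3. Falls were 3 throughout, except for 4 with library totals, where POLE2 was added. The median log2 fold change of the 44 genes, 0.11, was 0.028 with library totals, 0.045 on log2(TPM + 0.1), 0.044 on log2(TPM + 1) and 0.093 to 0.13 with 1 library left out. For all genes, 3177 rises became 1678, 1668 and 1767 with log2(TPM + 0.1), log2(TPM + 1) and an adjusted p under 0.005, and 2626 falls became 4117 with library totals and 1137 with an adjusted p under 0.005. For the 83 genes of the 4 other lists, 28 rises became 16 with either TPM pseudocount and 14 with an adjusted p under 0.005, and 10 falls became 18 with library totals, 6 with length offsets, 4 with an adjusted p under 0.005 and 5 to 12 with 1 library left out. The causes were not tested.

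With the replicate number as a block, 14 genes rose and 3 fell, and FEN1 was lost, where 16.1% of all genes were called higher and 12.6% lower. The labels do not say that same-numbered libraries were paired. Their deviations from the group means had correlations of -0.01, 0.02 and 0.03, which with 3 libraries per group cannot show whether they shared a batch. TP63 kept its call, at -1.61 to -1.49. None of the 44 genes passed both the fold and p thresholds under any alternative, DESeq2 included. For 7 of the 44 genes over 30% of 31-base words occur in other genes, so that their values rest on how kallisto divided shared reads.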
